A study of Mus musculus with 2 samples.

Results

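The genes described here encode 9 interferon-inducible GTPases of mouse macrophages. Of these, 5 are guanylate-binding proteins (Gbp2, Gbp3, Gbp5, Gbp7 and Gbp9) and 4 are immunity-related GTPases (Irgm1, Irgm2, Igtp and Iigp1). They were chosen by gene symbol and by no cut on a measured value, but with earlier results of these data known. All 9 were found among the 55536 mouse genes of the deposited gene tables.

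Nuclear RNA was measured by ribosomal-RNA-depleted total RNA-seq in bone-marrow-derived macrophages, primary cells grown from the marrow of C57BL/6J mice. The single group had met Lipid A, the TLR4-stimulating part of bacterial lipopolysaccharide, for 12 h at 100 ng/ml. Lipid A was then washed out for 12 h and added back at 100 ng/ml for 120 min. Both biological replicates, replicate 1 and replicate 2, carry 1 donor label, so part of their spread may be technical. One label names the fraction as the nucleus and another as nucleoplasmic, and age and sex were not collected. Replicate 1 was made from 1 ug of RNA and replicate 2 from 500 ng, so the input and the replicate cannot be told apart. Cells without Lipid A, or with 1 exposure, were not analysed here, and nothing below says what Lipid A changed.

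The libraries held 28450309 expected counts on genes in replicate 1 and 16940220 in replicate 2. The mitochondrial genome took 4.15% of the counts in replicate 1 and 10.3% in replicate 2. All 6 macrophage markers (among them Adgre1, Csf1r and Lyz2) were at 1 TPM or more in each library, with a summed level of 2289 and 2424 TPM. TPM is a length-corrected share of all transcripts in a library. The markers of T and NK cells, B cells, dendritic cells, fibroblasts, neutrophils and endothelial cells were all under 1 TPM in both libraries, and Cd3e, Ncr1, Klrb1c, Ly6g and Elane had 0 counts in both. In the second transcript table, made with another tool, Cd3d was at 1.00 and 5.57 TPM and Pecam1 at 1.45 and 14.4 TPM. The erythroid gene Alas2 was at 0.84 and 1.77 TPM. The other erythroid marker, Hba-a1, had 1 count in replicate 1 and 0 in replicate 2.

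Guanylate-binding proteins are large GTPases that assemble on the surface of intracellular bacteria and of the vacuoles that hold parasites, where they expose microbial ligands to inflammasomes. Immunity-related GTPases are smaller: the effector Iigp1 coats pathogen vacuoles and helps to break them, while Irgm1, Irgm2 and Igtp sit on the cell's own membranes and hold the effectors in their inactive form. Both families are classic targets of interferon signalling, in which transcription factors bind 2 kinds of DNA element near the start of the genes, the interferon-stimulated response element (ISRE) and the gamma-activated site (GAS).

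The promoters of the genes are shown first because they share a short run of bases. RefSeq promoters (build GRCm38.p6, from 250 bases before the start to 50 after it) were matched for 7 of the 9 genes, with 2 starts for Gbp3, which makes 8 promoters. Gbp9 and Iigp1 had no matched entry. Each line gives 40 bases, 5′ to 3′ on the strand of the gene, and the capitals mark the ISRE core (TTTC, any 2 bases, TTTC) or its reverse complement, with overlapping copies run together.
Gbp2, chr3:142620589-142620628, plus strand: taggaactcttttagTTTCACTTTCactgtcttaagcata
Gbp3, chr3:142559984-142560023, plus strand: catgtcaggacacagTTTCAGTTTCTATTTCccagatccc
Gbp5, chr3:142496754-142496793, plus strand: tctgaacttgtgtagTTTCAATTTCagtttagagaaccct
Gbp7, chr3:142530268-142530307, plus strand: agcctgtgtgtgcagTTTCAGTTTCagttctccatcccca
Irgm1, chr11:48871426-48871465, minus strand: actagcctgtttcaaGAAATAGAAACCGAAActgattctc
Igtp, chr11:58199507-58199546, plus strand: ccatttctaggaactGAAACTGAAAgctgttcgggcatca
Irgm2, chr11:58214898-58214937, plus strand: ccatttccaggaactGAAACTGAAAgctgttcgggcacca

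On either strand the ISRE core was found in 7 of the 8 promoters, at least once for each of the 7 genes. The same letters were found in 1131 of the 32851 mouse promoters of this length, or 3.44%, and in 3.39% of the promoters of genes tested below. The 4 matched guanylate-binding protein genes carried the core in the TTTC orientation and the 3 matched immunity-related GTPase genes in the GAAA orientation. Of 9 promoters of other genes of both families, 6 held the core. Gm12250, another gene of the immunity-related GTPase family, had it in the TTTC orientation. The core began 59 bases before the start of Gbp2, 53 before that of Gbp7, 64 before that of Irgm2 and 34 before that of Igtp, and farther out, at 165 bases, for Gbp5. Gbp3 and Irgm1 had 2 overlapping copies each, the first beginning 45 and 30 bases before the start. The second Gbp3 start, at 142560356, had none of these letters in its window. The GAS letters TTCNNNGAA were found in 4 promoters, those of Gbp5, Gbp7, Igtp and Irgm2, against 8.3% of all promoters. An AP-1 element, TGANTCA, was found in those of Gbp2 and Irgm1 (7.81% of all), and the NF-kB consensus in that of Gbp5 alone (4.51% of all). In the alignment of the Igtp and Irgm2 promoters, 247 of 271 columns were identical (91.1%). A match of letters is a description and does not show binding.

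**Figure D1:**
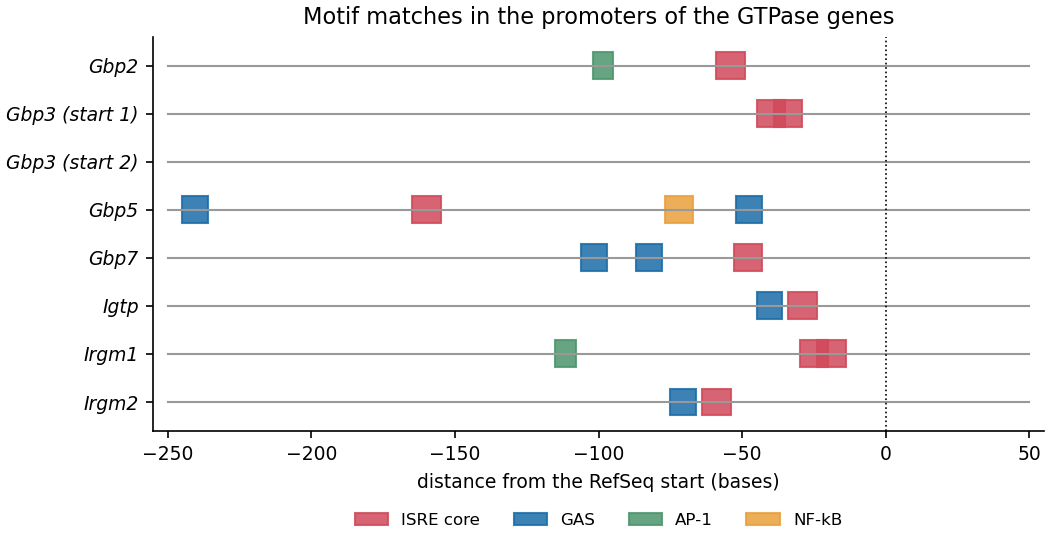
Position of motif matches in the 8 RefSeq promoters of 7 GTPase genes; the x axis is the distance from the RefSeq start in bases, each row is a promoter and each coloured box a match on either strand. ISRE cores sit within 65 bases before the start in all of these genes except Gbp5, where the core begins 165 bases before it.

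All 9 genes were expressed in the nuclear RNA, and all were among the more abundant protein-coding genes. Ranked by TPM among protein-coding genes that averaged 10 counts or more, they lay between percentile 88.5 (Irgm2) and percentile 99.1 (Gbp5). Together they took 0.327% of the counts in replicate 1 and 0.281% in replicate 2, and their median level was 55.95 and 59.29 TPM. The median tested protein-coding gene was at 4.09 and 6.08 TPM. In bulk RNA, fewer cells with the transcript and less RNA per cell cannot be told apart.

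Gbp5 (ENSMUSG00000105504.4, mm10 chr3:142493978-142522344, plus strand), which has been linked to the NLRP3 inflammasome, had the highest level. It stood at 176.68 TPM in replicate 1 and 248.97 TPM in replicate 2 (212.82 ± 51.12, SD, n = 2). Gbp2 (ENSMUSG00000028270.12, chr3:142620602-142638008, plus strand), which acts in the lysis of pathogen vacuoles, was at 140.03 and 127.39 TPM (133.71 ± 8.94). Both encode proteins that are anchored to membranes by a lipid added after translation. At gene level, where all forms are summed, the 2 libraries of Gbp5 lay above both libraries of Gbp2. Their protein-coding transcripts alone did not keep that order. Gbp5-201 was at 95.86 and 137.86 TPM, and Gbp2-201 at 139.84 and 127.39. In the second table Gbp5-201 was at 40.26 and 81.29 TPM, and Gbp2-201 at 62.58 and 82.19.

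The other guanylate-binding protein genes were lower. Gbp3 (ENSMUSG00000028268.14, chr3:142560026-142573209, plus strand) was at 55.95 and 59.29 TPM (57.62 ± 2.36). Gbp9 (ENSMUSG00000029298.15, chr5:105077630-105139539, minus strand) was at 42.19 and 48.76 TPM (45.48 ± 4.65). Gbp7 (ENSMUSG00000040253.15, chr3:142530342-142550149, plus strand), linked to the assembly of the phagocyte oxidase, was at 30.32 and 42.67 TPM (36.50 ± 8.73). Gbp3 and Gbp9 did not overlap over the libraries, whereas Gbp7 reached the lower library of Gbp9 in replicate 2. Gbp5, Gbp7, Gbp3 and Gbp2 lie on the same strand of chromosome 3, so these neighbours had levels that ranged from 30.32 to 176.68 TPM in replicate 1.

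Among the immunity-related GTPases the effector had the highest gene level, with all forms summed. Iigp1 (ENSMUSG00000054072.12, chr18:60376027-60392634, plus strand) was at 120.01 and 147.69 TPM (133.85 ± 19.57). Of the 3 regulators, Irgm1 (ENSMUSG00000046879.7, chr11:48861968-48871683, minus strand) was at 74.59 and 85.11 TPM (79.85 ± 7.44). Irgm1, Igtp and Irgm2 are all on chromosome 11, and the last 2 overlap there. Igtp (ENSMUSG00000078853.8, chr11:58199556-58207591, plus strand) was at 40.03 and 38.80 TPM (39.42 ± 0.87). Irgm2 (ENSMUSG00000069874.7, chr11:58199618-58222782, plus strand) was the lowest of the 9, at 30.07 and 34.18 TPM (32.13 ± 2.91). At gene level each library thus held more Iigp1 than Irgm1, and more Irgm1 than either of the other regulators. Protein-coding transcripts took 65.1% and 46.6% of the TPM of Iigp1, and 99.1% and 97.95% of that of Irgm1. On those transcripts alone Iigp1 was above Irgm1 in replicate 1 and below it in replicate 2, in the second table too.

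The order of the mean levels was Gbp5, Iigp1, Gbp2, Irgm1, Gbp3, Gbp9, Igtp, Gbp7 and Irgm2. Of the neighbours in that order, 3 pairs did not differ beyond the spread of the libraries: Iigp1 and Gbp2, Igtp and Gbp7, and Gbp7 and Irgm2. The ranges of the other neighbours did not overlap, but the gap could be narrow, as for Gbp9 over Igtp at 1.05-fold in replicate 1. Gbp5 stood 5.88-fold above Irgm2 in replicate 1 and 7.28-fold in replicate 2. In the second table, summed per gene, Gbp5 and Irgm2 again had the highest and the lowest level, but Irgm1 and Gbp3 were level in replicate 1 (33.64 and 33.60 TPM). Every value of that table was lower, at 0.431 to 0.601 of the gene table's TPM in replicate 1 and 0.599 to 0.796 in replicate 2.

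**Figure D2:**
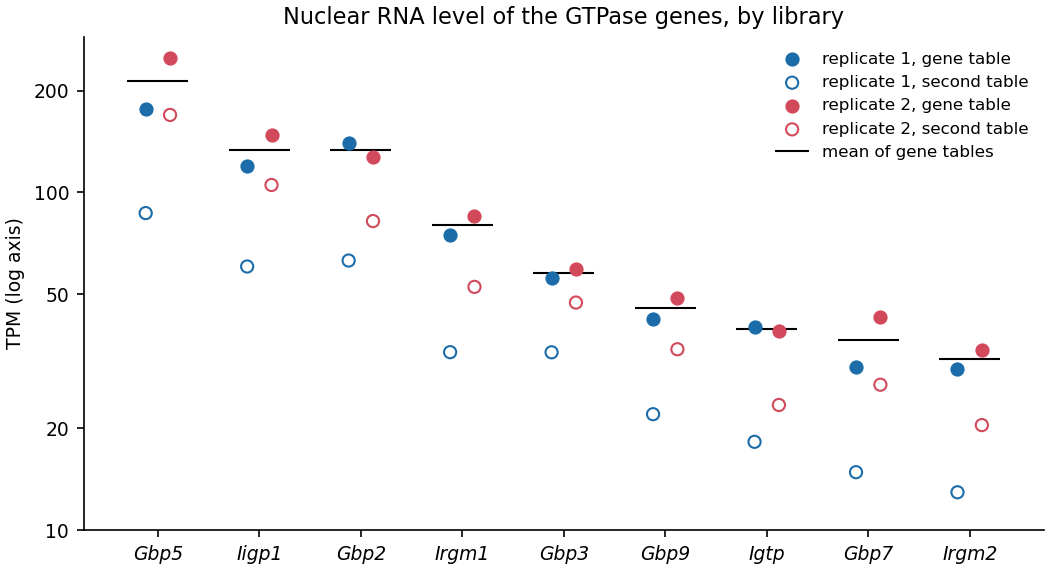
Level of the 9 GTPase genes in each library; the y axis is TPM on a log scale, filled points are the gene table, open points the second transcript table, and bars the mean of the 2 filled points. The filled points run from Gbp5, at 176.68 and 248.97 TPM, down to Irgm2, at 30.07 and 34.18 TPM.

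The nuclear transcripts of 3 genes, Gbp5, Gbp9 and Iigp1, were divided between protein-coding and other forms. Annotated protein-coding transcripts took 54.3% and 55.4% of the TPM of Gbp5, 62.7% and 56.5% of that of Gbp9, and 65.1% and 46.6% of that of Iigp1. In the second table these shares were 46.4% and 48.0%, 63.5% and 55.9%, and 60.6% and 45.0%. In the other 6 genes the share was between 97.9% and 100%, and between 95.8% and 100% in the second table. Of these, Gbp7, Igtp and Irgm2 have only protein-coding transcripts annotated, so their share was fixed in advance. Only Gbp5 and Gbp9 of the GTPase genes have an annotated retained-intron transcript. The median over the 11324 genes with a protein-coding transcript was 81.3% in replicate 1 and 76.5% in replicate 2. How a tool divides reads that fit several transcripts sets these shares, so the second table's values are given beside those of the first. In nuclear RNA the shares also do not tell RNA not yet spliced from transcripts that keep an intron, which was not tested.

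**Figure D3:**
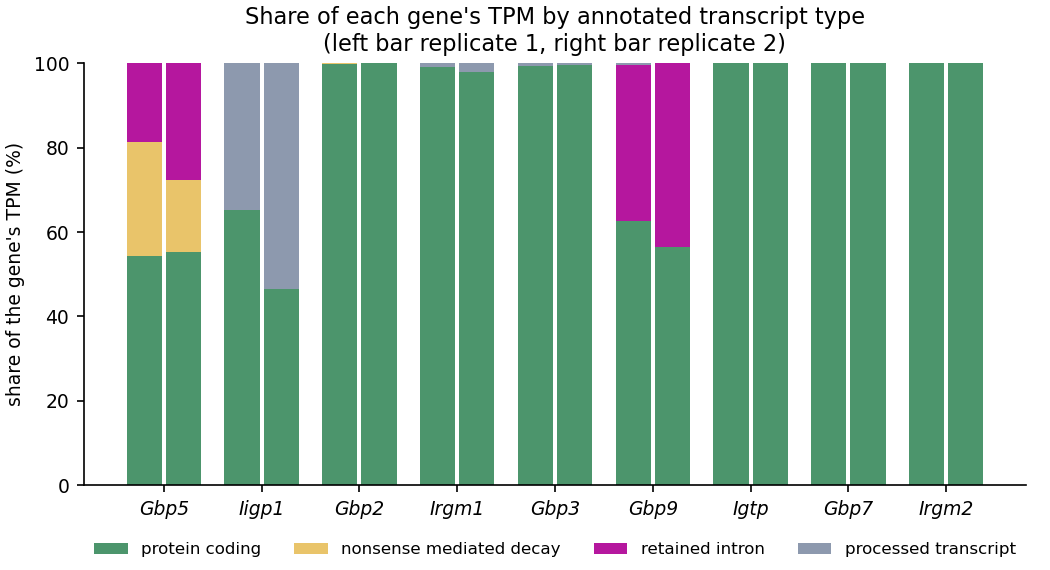
Share of each gene's TPM by the annotated type of transcript; the y axis is percent, the left bar of a pair is replicate 1 and the right bar replicate 2. Gbp5, Gbp9 and Iigp1 have 56.5% or less of their TPM on protein-coding transcripts in replicate 2, and the other genes 97.9% or more. Gbp7, Igtp and Irgm2 have no other type annotated.

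In Gbp5, 3 transcripts carried nearly all of the RNA. The coding transcript Gbp5-201 was at 95.86 and 137.86 TPM, or 54.3% and 55.4% of the gene (46.4% and 48.0% in the second table). Gbp5-205, annotated as a retained intron, was at 33.07 and 68.75 TPM, or 18.7% and 27.6% (18.8% and 27.0% in the second table). It keeps introns 4, 5 and 6 of the 10 introns of Gbp5-201, which are 597, 329 and 887 nt long. The bases around the start of intron 4 (chr3:142503126-142503722, mm10) tell RNA with this intron spliced from RNA that still holds it. Capitals mark what follows the last base of the exon.
Gbp5 intron 4 spliced: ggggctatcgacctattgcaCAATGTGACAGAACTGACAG
Gbp5 intron 4 retained: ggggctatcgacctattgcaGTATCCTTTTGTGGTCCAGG

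The third Gbp5 form, Gbp5-202, is annotated as a target of nonsense-mediated decay, the pathway that degrades messages with an early stop. It was at 47.53 and 41.73 TPM, or 26.9% and 16.8% of the gene (27.3% and 19.4% in the second table). It differs from Gbp5-201 by an extra exon of 940 nt (chr3:142518120-142519059) between exon 10 and the last exon, and its coding sequence of 2172 nt, against 1770 nt, ends there. The junctions that set them apart are given with capitals for the bases of the following exon.
Gbp5 exon 10 to last exon: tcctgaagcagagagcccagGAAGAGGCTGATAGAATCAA
Gbp5 exon 10 to extra exon: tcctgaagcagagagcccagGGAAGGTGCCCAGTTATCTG

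All decay-annotated transcripts of Gbp5 together took 27.02% and 17.01% of its TPM, at percentile 88.2 and 79.6 of the 3393 genes with such a transcript, whose median was 3.09% and 1.6%. Its retained-intron share was near the middle of the 6823 genes with such a transcript, at percentile 41.6 and 47.2. The second table put a further 7.58% and 5.61% on Gbp5-204, which the first listed at 0 in both libraries.

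The TPM of Gbp9 was divided between coding transcripts and a transcript annotated as a retained intron. The coding transcript Gbp9-201 was at 17.41 and 27.55 TPM (41.3% and 56.5%, and 29.9% and 55.9% in the second table). Gbp9-203, annotated as a retained intron, was at 15.61 and 21.21 TPM (37.0% and 43.5%, and 29.9% and 33.7% in the second table). It keeps 1 of the 10 introns, intron 7, of 662 nt (chr5:105082911-105083572, minus strand). Among genes with a retained-intron transcript, whose median share was 23.4% and 29.7%, Gbp9 was at percentile 71.7 and 68.5. The bases at the start of that intron are shown in the direction of the gene, with capitals for what follows the last base of the exon.
Gbp9 intron 7 spliced: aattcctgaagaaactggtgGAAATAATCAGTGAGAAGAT
Gbp9 intron 7 retained: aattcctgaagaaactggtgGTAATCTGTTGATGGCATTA

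A further coding transcript, Gbp9-202, set the libraries apart. It starts at another first exon (chr5:105139480-105139539), upstream of the start of Gbp9-201, and has the same coding length of 1857 nt. It was at 9.03 TPM in replicate 1, from 1098.18 expected counts, and was listed at 0 in replicate 2, where the deposited credibility interval reached 0.471 TPM. In the second table it had 33.6% of the gene in replicate 1 and was again listed at 0 in replicate 2. The annotated span of Gbp8 covers that of Gbp9 on the same strand, and Gbp4 overlaps it too. Their annotated starts, at 105139540 for Gbp8 and 105139586 for Gbp4, lie close to the first exon of Gbp9-202. Of the 31-base words of the Gbp9 transcripts, 18.3% also occur in transcripts of other genes, chiefly Gbp8, Gbp6 and Gm43302. The part of these shared sequences in the difference was not tested.

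Much of the TPM of Iigp1 was assigned to annotated transcripts that end within its intron. Where these RNAs end was not measured, and RNA not yet spliced was not told apart from them. The coding transcript Iigp1-202, which has 2 exons, was at 71.56 and 63.02 TPM (59.6% and 42.7%, and 39.6% and 22.3% in the second table). Iigp1-205 and Iigp1-203, both annotated as processed transcripts, share its first exon and end inside its only intron. Iigp1-205 was at 24.83 and 47.59 TPM, and Iigp1-203 at 17.03 and 31.28 TPM. Together they took 34.9% and 53.4% of the gene (39.4% and 55.01% in the second table), so more than the coding transcripts in replicate 2 and less in replicate 1. The tables divided the coding RNA differently: Iigp1-201, which has an extra exon, took 0.51% and 0.56% in the first and 20.9% and 22.7% in the second.

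**Figure D4:**
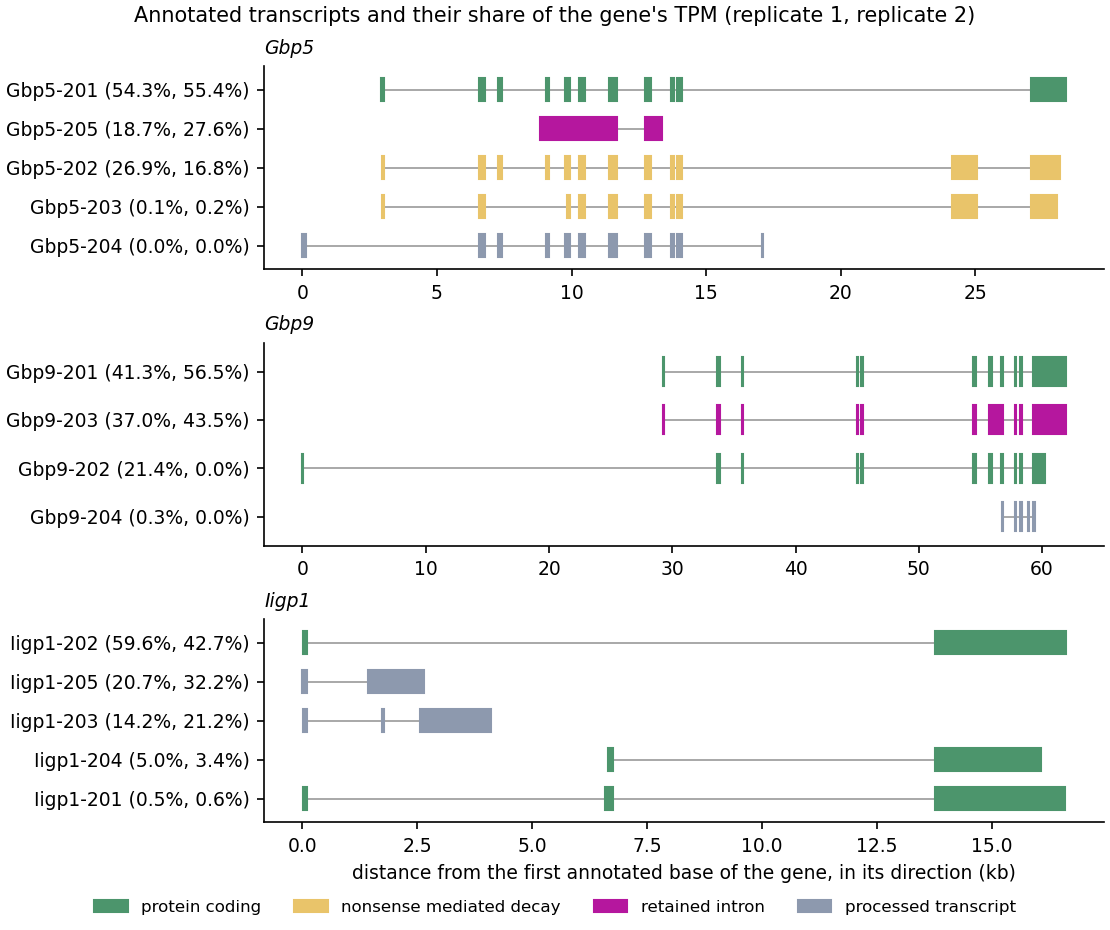
Exons of the annotated transcripts of Gbp5, Gbp9 and Iigp1, coloured by annotated type, against the distance in kb from the first annotated base of the gene in its direction of transcription; names give the share of the gene's TPM in replicate 1 and replicate 2. The retained introns of Gbp5-205 and Gbp9-203 appear as wide exons, and Iigp1-205 and Iigp1-203 end within the long intron of Iigp1-202.

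The remaining genes differed mainly in which coding form was read. Irgm1-202, with a coding sequence of 1179 nt, had 63.6% and 57.3% of Irgm1, and Irgm1-201, which has an extra exon and codes for a longer form (1227 nt), had 35.6% and 40.7%. In the second table that order was the other way round, at 48.2% and 40.6% for Irgm1-202 against 49.9% and 56.1% for Irgm1-201. So the tables do not settle which regulator form was the more abundant. Gbp3-202 had 75.96% and 67.0% of Gbp3, and Gbp3-203, with another first exon and the same coding length, had 20.7% and 30.2%. In the second table Gbp3-202 had 54.2% and 57.0%, Gbp3-203 had 15.7% and 15.4%, and Gbp3-205, at 0.36% and 0% in the first, had 20.2% and 15.9%. The tables thus differ in which library had the larger share of Gbp3-202. Gbp3-203 starts at 142560052, near the RefSeq start whose promoter held the ISRE core (142560044), and Gbp3-202 at 142560411, after the start whose window held none. Gbp7-201 had 84.3% and 91.0% of Gbp7 (73.0% and 87.8% in the second table), the rest falling to Gbp7-202, which has a shorter last exon. Gbp2-201 had 99.9% and 100% of Gbp2 (99.6% and 100%), and Igtp-201 had 91.6% and 94.3% of Igtp (93.0% and 95.8%). Irgm2-202 had 87.0% and 96.7% of Irgm2, but 77.3% and 67.9% in the second table, where Irgm2-203 had 21.3% and 32.1%, so the direction between the libraries turned with the table.

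Reads of related genes can be split only where their sequences differ. The coding sequences of Gbp3 and Gbp7 were 76.3% identical, those of Gbp7 and Gbp9 71.6%, and those of Gbp2 and Gbp5 67.0%, while Iigp1 was 50.6% to 51.8% identical to the 3 regulators. Of the 31-base words, Igtp shared 15.9% with other genes, all of them also in Irgm2, and Irgm2 shared 10.7%. The annotated spans of Igtp and Irgm2 overlap on the same strand, and Irgm2-201 starts in an exon at the start of Igtp. Gbp7 shared 14.7% of its words, mostly with the pseudogene Gm43802, to which 148.69 counts were given in replicate 1 and 0 in replicate 2. Gbp9, Igtp, Gbp7 and Irgm2 thus had the largest shared parts of the 9. How far the sharing makes their levels uncertain was not tested. For Gbp5 the shared part was 3.05% and for Irgm1 2.2%.

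Between the libraries, all 9 genes had fewer scaled counts in replicate 2. Counts were scaled by TMM, edgeR's scaling for RNA composition, and compared with an exact two-sided binomial test, adjusted by Benjamini-Hochberg over 14698 genes. The p-values speak of the 2 libraries and of counting error, not of a condition. The test called all 9 genes lower in replicate 2, and it called 30.0% of all genes lower, 29.3% higher and 59.3% in either direction. Among the 3244 genes that averaged 1000 counts or more, as all 9 have, 56.3% were called lower.

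Gbp2 had the largest difference, with 15736 counts in replicate 1 and 6145 in replicate 2, a log2 ratio of -0.77 after scaling (1.71-fold lower in replicate 2, adjusted p = 3.03e-295, exact binomial test). Igtp (3490.34 and 1458.38 counts) had a log2 ratio of -0.68, Gbp3 (6558 and 2984.57) of -0.55, and Iigp1 (12808 and 5953) of -0.52. Irgm2, Irgm1 and Gbp9 followed at -0.46, -0.42 and -0.29. The smallest differences were those of Gbp5 (26957 and 16095 counts, log2 ratio -0.16, adjusted p = 4.95e-28) and Gbp7 (7314.31 and 4580.43 counts, log2 ratio -0.09, adjusted p = 0.00177, exact binomial tests). The genes thus ranged from 1.07-fold to 1.71-fold lower.

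All 9 ratios lay within the middle 95% of the tested genes. The log2 ratios of all tested genes had a median of 0.00 (0.00447), with that middle 95% between -1.5 and 1.7, and 82.7% of genes within 2-fold. Among genes that averaged 1000 counts or more the median was -0.18, and the GTPase genes lay between percentile 11.4 (Gbp2) and percentile 57.0 (Gbp7). The spread between the replicates over all genes was a coefficient of variation of 0.335 by edgeR.

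The direction depended on the scale for Gbp5 and Gbp7. Scaled by the total count, their log2 ratios were 0.00 (0.00394) and 0.07 in place of -0.16 and -0.09, Gbp5 was no longer called (adjusted p = 0.843), and Gbp7 was called higher in replicate 2 (adjusted p = 0.0144, exact binomial tests). That scaling called 21.9% of all genes lower and 38.6% higher. On log2(TPM + 1), less the median gene, both were also above 0, at 0.06 and 0.05. The other 7 genes were lower in replicate 2 under each of these scalings.

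Deposited TPM pointed the other way for most genes, and 7 of the 9 had the higher TPM in replicate 2. RNAs with an effective length under 200 nt took 76.7% of all TPM in replicate 1 and 61.8% in replicate 2, and the median tested gene was higher in replicate 2 by 0.43 on the log2(TPM + 1) scale. With those RNAs and the mitochondrial genes left out and the rest rescaled, all 9 genes were lower in replicate 2, for example Gbp2 at 670.1 and 417.8 TPM and Gbp5 at 845.5 and 816.6 TPM. GC content also moved with the ratio: the median log2 ratio ran from 0.73 in the decile of genes with the lowest GC content to -0.49 in the decile with the highest. The GTPase transcripts had 39.4% to 49.8% GC, and less the median of their own decile all 9 were lower in replicate 2, from -0.30 for Gbp5 to -1.26 for Iigp1.

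**Figure D5:**
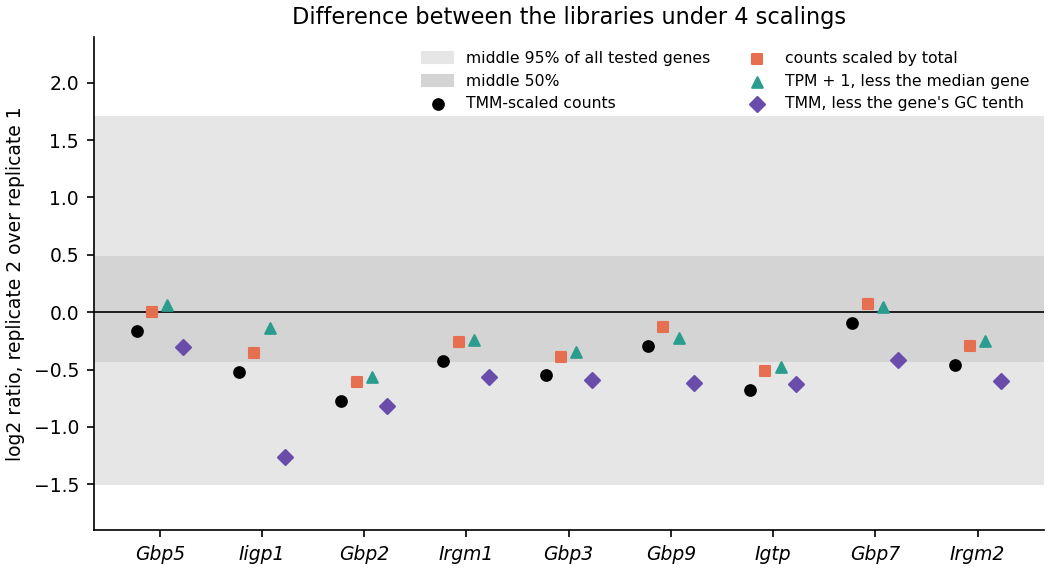
Log2 ratio of replicate 2 over replicate 1 for each GTPase gene under 4 scalings, with shaded bands for the middle 95% and the middle 50% of all tested genes on TMM-scaled counts. Every point of Gbp2, Igtp, Gbp3, Iigp1, Irgm1, Irgm2 and Gbp9 is below 0, and those of Gbp5 and Gbp7 are on either side of it.

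The 9 genes are part of larger families, whose other annotated genes were measured too. Of 7 other guanylate-binding protein genes, 5 were at 1 TPM or more in both libraries: Gbp6 at 98.45 and 100.18 TPM, Gbp4 at 40.87 and 34.80, Gbp8 at 24.81 and 25.37, Gbp11 at 6.37 and 3.98, and Gbp10 at 7.34 and 2.33. Gbp6 was thus lower than Gbp5 and Gbp2 and higher than Gbp3, Gbp7 and Gbp9 in both libraries. Of the 7, 6 were called lower in replicate 2, against 30.0% of all genes and 56.3% of those averaging 1000 counts or more. Some of the 7 averaged fewer than 1000 counts, and the second share does not cover those. The gene of the 7 not called lower, named after its values were seen, was Gm43302, at 0.24 and 0.81 TPM. It was listed at 0 in replicate 1 in the second table.

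Of 12 other immunity-related GTPase genes, 11 were at 1 TPM or more in both libraries. Tgtp2, an effector of the same kind as Iigp1, led them at 62.30 and 62.17 TPM. Gm5431 (35.40 and 30.95 TPM), 9930111J21Rik2 (34.22 and 32.15), Gm12250 (32.34 and 34.19), 9930111J21Rik1 (31.54 and 22.76), Gm4951 (19.20 and 15.47), F830016B08Rik (10.38 and 12.10) and Tgtp1 (10.14 and 5.84) came next. Irgq (4.71 and 5.04 TPM), Gm12185 (3.26 and 1.97) and Gm4841 (1.55 and 1.04) were lower still. None of the 11 that could be tested was higher in replicate 2, and all 11 were lower. The share called lower was 30.0% over all genes and 56.3% over those averaging 1000 counts or more. Some of the 11 averaged fewer than 1000 counts, and the second share does not cover those. Iigp1 was above Tgtp2 in both libraries in the gene table, but in the second table Tgtp2 (74.0 and 86.2 TPM) was above Iigp1 (60.3 and 105.1 TPM) in replicate 1 and below it in replicate 2.

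The signalling genes upstream of the GTPases were expressed as well. Of 14 interferon, receptor, kinase and transcription factor genes, 13 reached 1 TPM in both libraries, and the median of the 14 was 40.29 and 43.55 TPM. Among the transcription factor genes, Irf1 was at 146.47 and 130.87 TPM, and Stat2, whose product is part of the complex that binds the ISRE, at 135.66 and 124.36 TPM. Interferon beta (Ifnb1) was at 15.78 TPM from 400 counts in replicate 1 and at 4.38 TPM from 49 counts in replicate 2. Interferon gamma (Ifng), the main inducer of both families from T and NK cells, had 1 count in replicate 1 and 0 in replicate 2. A count of 0 allows up to 3 counts, or a CPM of 0.177 in replicate 2, as far as counting error goes. Of the 13 tested, 12 were lower in replicate 2 and none was higher, and all 6 macrophage markers were lower. The test called 30.0% of all genes lower, and 56.3% of those averaging 1000 counts or more, which Ifnb1 did not reach.

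Genes that act with the GTPases were next. Of 12 genes of the ubiquitin-like conjugation that marks pathogen vacuoles, 11 reached 1 TPM in both libraries, led by Sqstm1 at 180.26 and 262.04 TPM, a receptor for ubiquitin-marked cargo, then Gabarap at 46.35 and 66.93 and Atg16l1 at 14.50 and 27.32. Between the libraries 3 of these 12, Atg16l1 and, named after their values were seen, Atg3 and Atg5, were higher in replicate 2, and 6 were lower. All 6 inflammasome genes were detected: Nlrp3 was at 116.77 and 112.94 TPM, Casp4, whose product senses lipopolysaccharide in the cytosol, at 61.59 and 92.65, and Gsdmd, which encodes the pore-forming gasdermin D, at 71.56 and 50.96. Of these 6, 5 were lower in replicate 2 and 1, Casp4, was higher (log2 ratio 0.12, adjusted p = 0.0126, exact binomial test). Of 5 genes for enzymes that attach lipids to proteins such as Gbp2 and Gbp5 or trim and methylate the lipid-bearing end, 4 were detected, with Pggt1b at 15.46 and 28.29 TPM, Fnta at 4.38 and 6.41 and Rce1 at 3.96 and 6.30. By the exact binomial test none of the 5 was called in either direction (Pggt1b log2 ratio 0.08, adjusted p = 0.0794). Over all genes tested, 30.0% were called lower and 29.3% higher. Among genes averaging 1000 counts or more, 56.3% were called lower. Some conjugation and lipid-enzyme genes, among them Fnta and Rce1, averaged fewer, and that share does not cover them.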

How the data were processed

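Nuclear RNA of 2 replicates of 1 group was analysed. For each library the authors deposited a gene table and a transcript table. Per the file headers these give expected counts (estimated, not always whole), TPM, isoform percent, posterior means and the bounds of TPM credibility intervals, used here as a signal that is never negative. A second deposited transcript table gives estimated counts and TPM from another tool. Tools, versions, aligner and strand setting are not given in the sources used here. Per the file headers, mm10 and GENCODE M21 were the reference.

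Rows naming no mouse gene (1.79% and 0.318% of counts) were left out. Expected counts were rounded and scaled by TMM (edgeR 4.0.16, R 4.3.3), with a prior count of 0.5. Genes averaging 10 counts or more were compared by exact two-sided binomial test, adjusted by Benjamini-Hochberg, threshold 0.05. This compares libraries, not conditions. The test was checked on simulated counts with counting error only, so the check does not cover the wider spread between these libraries. DESeq2 1.42.0 gave alternative size factors. Coding sequences were aligned with Biopython 1.88 in Python 3.11.15, since protein sequences were not used here.

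The members and lists were chosen with earlier results of these data known. All 9 genes are named, with their relatives that reach 1 TPM in both libraries, the 3 highest genes of each pathway list, and Ifnb1, Ifng, Irf1, Casp4 and Pggt1b; 1 further gene that the rule names is not reported here. Alternatives were the second table, posterior means, rescaled TPM, other scalings, filters and pseudocounts, and each replicate left out.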

Additional observations from a re-analysis of the deposited data

How the results depend on the processing

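No paired analysis was possible because the study has 1 group. The median level of the 9 genes was 57.62 TPM, 40.39 in the second table, 231.2 when TPM was rescaled without short and mitochondrial RNAs, and 55.95 to 59.29 with either replicate left out. Gbp5 was highest and Irgm2 lowest in each of these. The log2 ratio of Gbp5 changed sign with total-count scaling (0.003944) and on log2(TPM + 1) less the median gene (0.0615), as did that of Gbp7 (0.07267 and 0.0486); the cause was not tested. With DESeq2 size factors, no count filter, the second table's counts, a pseudocount of 0.1 or the GC correction, which was chosen after seeing the data, all 9 ratios kept their direction. Of 19 levels and main transcript shares, 17 moved by more than 1 SD in the second table. The numbers of detected genes in the 6 pathway lists stayed within 1.5 times with detection at 0.5 or 2 TPM. Rounded counts without marked PCR copies limit the tests to counting error, and 2 libraries limit every SD.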

Other observations

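Of the 19 relatives of the 9 genes, 10 have only protein-coding transcripts annotated, so their coding share was 100% by annotation. Gbp11 and Gm12250 had all of their TPM on pseudogene transcripts. A few of the others had much of their TPM on other forms. In Gbp6, which has 1 transcript of each type, the coding share was 56.1% in replicate 1 and 24.5% in replicate 2, the decay-annotated share 28.7% and 47.3%, and the retained-intron share 15.3% and 28.2%. The second table gave 59.0% and 23.8% for the coding share, so both tables put the coding transcript of Gbp6 lower in replicate 2 while the level of the whole gene was 98.45 and 100.18 TPM. In Gbp4 the decay-annotated transcript had 52.7% and 52.1% (42.0% and 40.5% in the second table). In Gbp8 a processed transcript had 47.1% and 60.3% (34.1% and 51.9%). In Gbp10 the retained-intron transcript had 84.8% and 90.1%, but 79.2% and 3.32% in the second table, at 324.59 and 37.36 counts for the gene. For Tgtp2 the tables differed, with 94.4% and 79.8% on the coding transcript in the first and 32.3% and 32.1% in the second.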
